A study of Mus musculus with 4 samples.

Results

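The proteasome subunits are the protein chains of the large protease complex that degrades ubiquitin-tagged proteins. They were taken as every gene whose symbol is Psma, Psmb, Psmc or Psmd followed by a number, leaving out the immune variants Psmb8, Psmb9 and Psmb10. This rule found 36 of the 54446 genes in the table: 8 alpha genes, 8 beta genes, 6 Psmc genes and 14 Psmd genes. Of the 36, 34 had a level above 0 in all 4 libraries, as did 17787 genes in all, and these 34 are the members counted below. Psma8, a germ cell variant of an alpha subunit, was listed at 0 in every library. Psmb11, a beta subunit made in thymic epithelium, was listed at 0.0105 in the DMSO library labelled basal, at 0.0202 in the baicalin library labelled luminal, and at 0 in the others, which rests on at most 2 fragments.

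The proteasome is built from a barrel-shaped core particle and regulatory caps. The core has outer rings of alpha subunits, which gate the entry of substrates, and inner rings of beta subunits, of which Psmb5, Psmb6 and Psmb7 carry the cutting sites. The cap has a base, in which a ring of Psmc ATPases unfolds the substrate, and a lid of Psmd subunits, in which Psmd14 removes the ubiquitin chain. Cells make the subunits in fixed proportions, and their genes are known to be induced together by the transcription factor Nfe2l1 when proteasome activity is short.

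Mammary epithelial cells of wild type C57BL/6 mice, sorted by flow cytometry and labelled basal or luminal, were grown as 3D cultures in Matrigel in a medium with EGF and an insulin, transferrin and selenium supplement. They received DMSO, the solvent control, or 100 μM baicalin, a flavonoid of Scutellaria root. RNA was selected by its poly(A) tail and sequenced as 1 library for each label and treatment, so 4 libraries are compared and no difference has a replicate check. The sample labels give neither the age of the mice nor whether mice were pooled; the methods give an age range in weeks for female donors of primary cells, not tied to these libraries. Each level is in FPKM, a count of fragments corrected for the length of the exons and for the depth of sequencing. The steps between low FPKM values gave 19853600 fragments for basal label with DMSO, 20283069 for basal label with baicalin, 19356102 for luminal label with DMSO and 20648789 for luminal label with baicalin. Changes are log2 ratios of FPKM + 1, counted past 1, the threshold of the study, and past 0.5 and 0.25 because abundant genes are well counted. Each 95% interval is a Clopper-Pearson interval that belongs to the ratio of the plain FPKM and covers counting error only.

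The labels did not match the keratins and muscle proteins that define these layers. Summed over 10 basal markers, the DMSO libraries had 1684 FPKM under the basal label and 5119 FPKM under the luminal label, and all 10 were higher under the luminal label. Summed over 12 luminal markers, they had 4433 FPKM under the basal label and 1379 FPKM under the luminal label, and 10 of the 12 were lower under the luminal label. The exceptions run as the labels say: Esr1 had 0.992 FPKM under the basal and 1.44 FPKM under the luminal label, and Pgr had 1.08 and 4.81 FPKM. The methods state that the sorted populations were checked for purity. Krt5, a basal keratin, had 128 and 3.01 FPKM in the libraries labelled basal, with DMSO and with baicalin, and 2015 and 2415 FPKM in those labelled luminal. In the same order of libraries, which is kept for every set of 4 values from here on, the basal transcription factor Trp63 had 6.01, 0.305, 25.2 and 27.0 FPKM. The contractile protein gene Cnn1 had 0.147, 0.0180, 11.7 and 3.43 FPKM, and the oxytocin receptor gene Oxtr had 1.09, 0.638, 19.4 and 3.61 FPKM. With baicalin, 9 of the 10 basal markers were lower under the basal label and 6 under the luminal label, where Krt5, Krt14, Trp63 and the contractile gene Myh11 were higher. Of the 12 luminal markers, 9 were lower with baicalin under each label, and Cd24a, Cldn3 and Cldn4 were higher under each. Krt19 had 116, 80.0, 105 and 24.98 FPKM, and Elf5 had 14.9, 5.63, 6.51 and 3.18 FPKM. Kit had 6.83, 2.72, 6.59 and 0.957 FPKM, and Prlr, the prolactin receptor gene, had 6.50, 1.60, 2.40 and 0.688 FPKM. The words basal and luminal below therefore stand for the label of a library and not for a cell type.

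The 34 members were well counted. Their summed level was 1833 FPKM in the DMSO library labelled basal, 1553 FPKM with baicalin, 1633 FPKM in the DMSO library labelled luminal and 1579 FPKM with baicalin. The members took 0.483%, 0.416%, 0.425% and 0.418% of all fragments in these libraries, so the DMSO library labelled basal stood above the other 3, which lay close together. Levels differed more between members than between libraries. In the DMSO library labelled basal the lowest member was Psmd9 at 4.39 FPKM, the highest was Psma6 at 136 FPKM, and the median was 51.3 FPKM. The order of the members was much alike in all 4 libraries, with Spearman's rho across the 34 genes between 0.92 and 0.98 for the pairs of libraries; genes are not independent replicates, so this is a description.

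**Figure D1:**
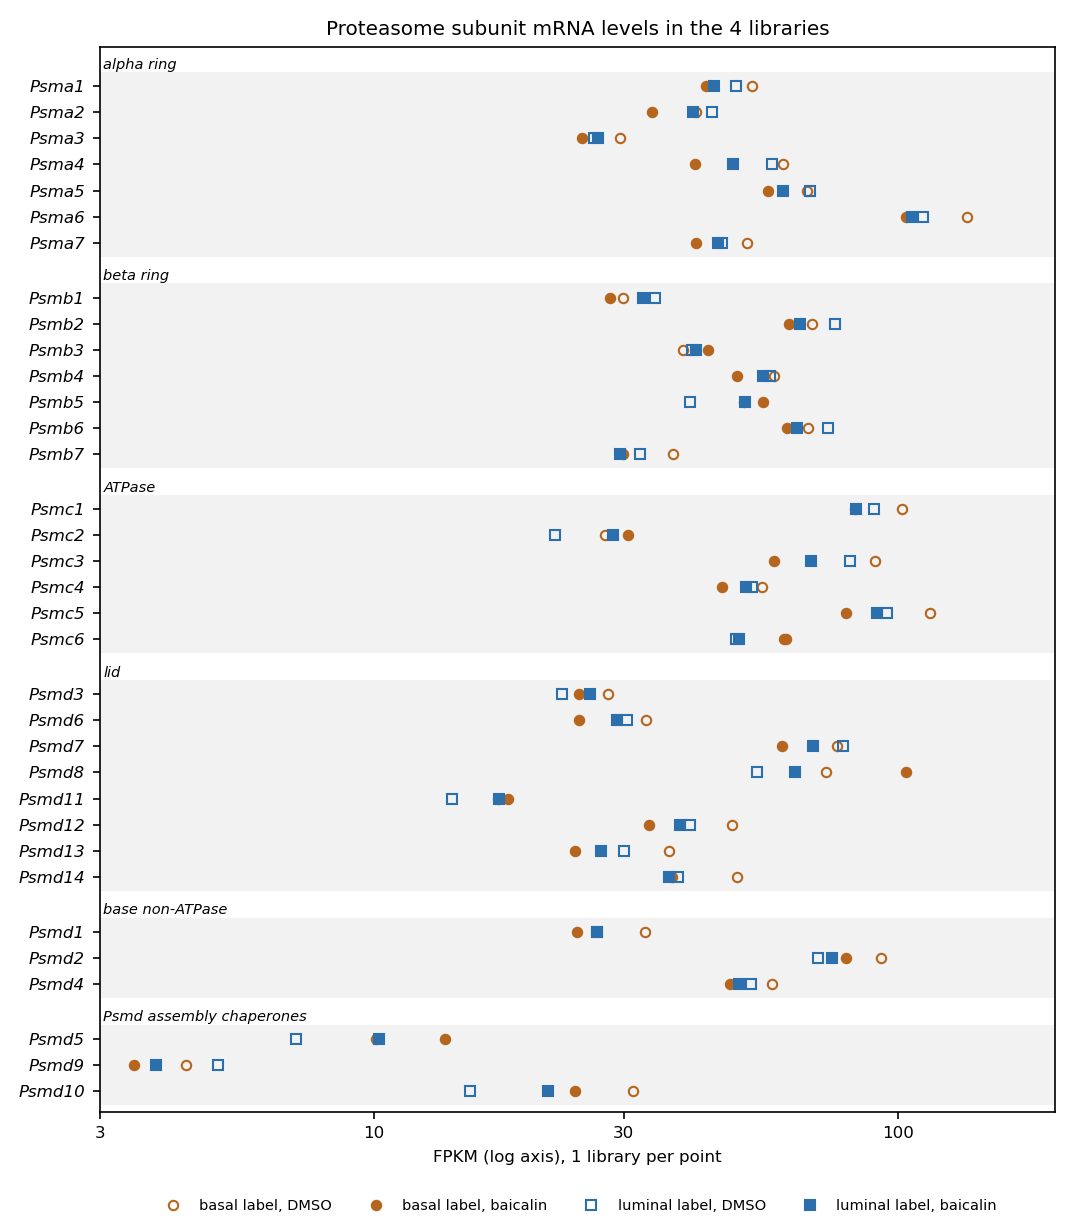
Level of each of the 34 proteasome subunit genes in FPKM on a log axis, with 1 point for each of the 4 libraries, grouped by place in the complex. Most genes lie between 20 and 100 FPKM, the chaperone gene Psmd9 is lowest at 3.49 to 5.05 FPKM, and open brown circles, the DMSO library labelled basal, lie farthest right for most genes.

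Baicalin was compared with DMSO within each label. Under the basal label most proteasome subunit mRNAs were lower with baicalin. The median log2 change of the 34 members was -0.26, against 0.0087 over all genes kept, and 28 of the 34 were lower, against 49.1% of all genes kept. By more than 0.25, 19 members were lower, against 20.2% of all genes, and they lay in every class, though with only 1 of 7 in the beta ring. By more than 0.5, 5 members were lower, namely Psmc3, Psmd13, Psma4, Psmc5 and Psmd12, against 9.54% of all genes. Of the 5229 genes with a mean of at least 10 FPKM, 2766 were lower, 1332 by more than 0.25 and 580 by more than 0.5. Of the 33 members at such levels, these counts were 27, 18 and 5. Psmd8 and Psmd5 were higher by more than 0.25, which is 2 members against 22.9% of all genes. Psmd8 alone was higher by more than 0.5, against 9.71% of all genes, and it lay so close to that line that scaling to TPM or centring on the median of all genes left 0 members above it. No member passed a change of 1 in either direction, against 5.48% of all genes. The counting interval of the ratio lay wholly below 1 for 26 members, wholly above 1 for 4, and held 1 for 4. These interval counts have no share over all genes beside them, and abundant genes have narrow intervals. They describe counting error and do not set the members apart from other genes. In bulk RNA, fewer cells of a type and less RNA per cell cannot be told apart.

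Under the luminal label the same comparison gave a much smaller shift. The median log2 change was -0.06, against -0.02 over all genes kept, and 23 of the 34 members were lower, against 54.4% of all genes. Only Psmd9 was lower by more than 0.25, against 22.0% of all genes, while 5 members were higher by more than 0.25, against 18.0%. These 5 were Psmd5, Psmd10, Psmc2, Psmb5 and Psmd11. No member was higher by more than 0.5, against 8.01% of all genes, none was lower by more than 0.5, against 8.29%, and none passed 1 in either direction, against 3.95%. The interval lay below 1 for 13 members, above 1 for 8, and held 1 for 13. As under the basal label, no share over all genes stands beside these interval counts, so they describe counting error only.

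The members that were higher with baicalin were partly the same ones under both labels. All 6 members that were higher under the basal label, Psmd8, Psmd5, Psmb3, Psmc2, Psmb5 and Psmd11, were also among the 11 that were higher under the luminal label, which is 100% of the first list and 54.5% of the second. Among all genes kept these shares were 54.9% and 61.3%. Higher under both labels were 6 of all 34 members, or 17.6%, against 28.0% of all genes kept. The 6 genes were the same ones under TPM, median and upper quartile scaling. This overlap counts signs of any size. The counting intervals of Psmb5 and Psmd11 under the basal label and of Psmb3 under the luminal label held 1. A further 23 members were lower under both labels, against 31.4% of all genes kept. The remaining 5, Psma3, Psmc6, Psmd2, Psmd3 and Psmd10, were lower under the basal and higher under the luminal label, against 17.7% of all genes. These baicalin comparisons share no library. Across the 34 members the log2 changes under the labels had a Spearman's rho of 0.50 and a Pearson's r of 0.62, beside 0.40 and 0.42 over the 5229 genes with a mean FPKM of at least 10. These values are across genes, which are not independent, and are given as a description.

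**Figure D2:**
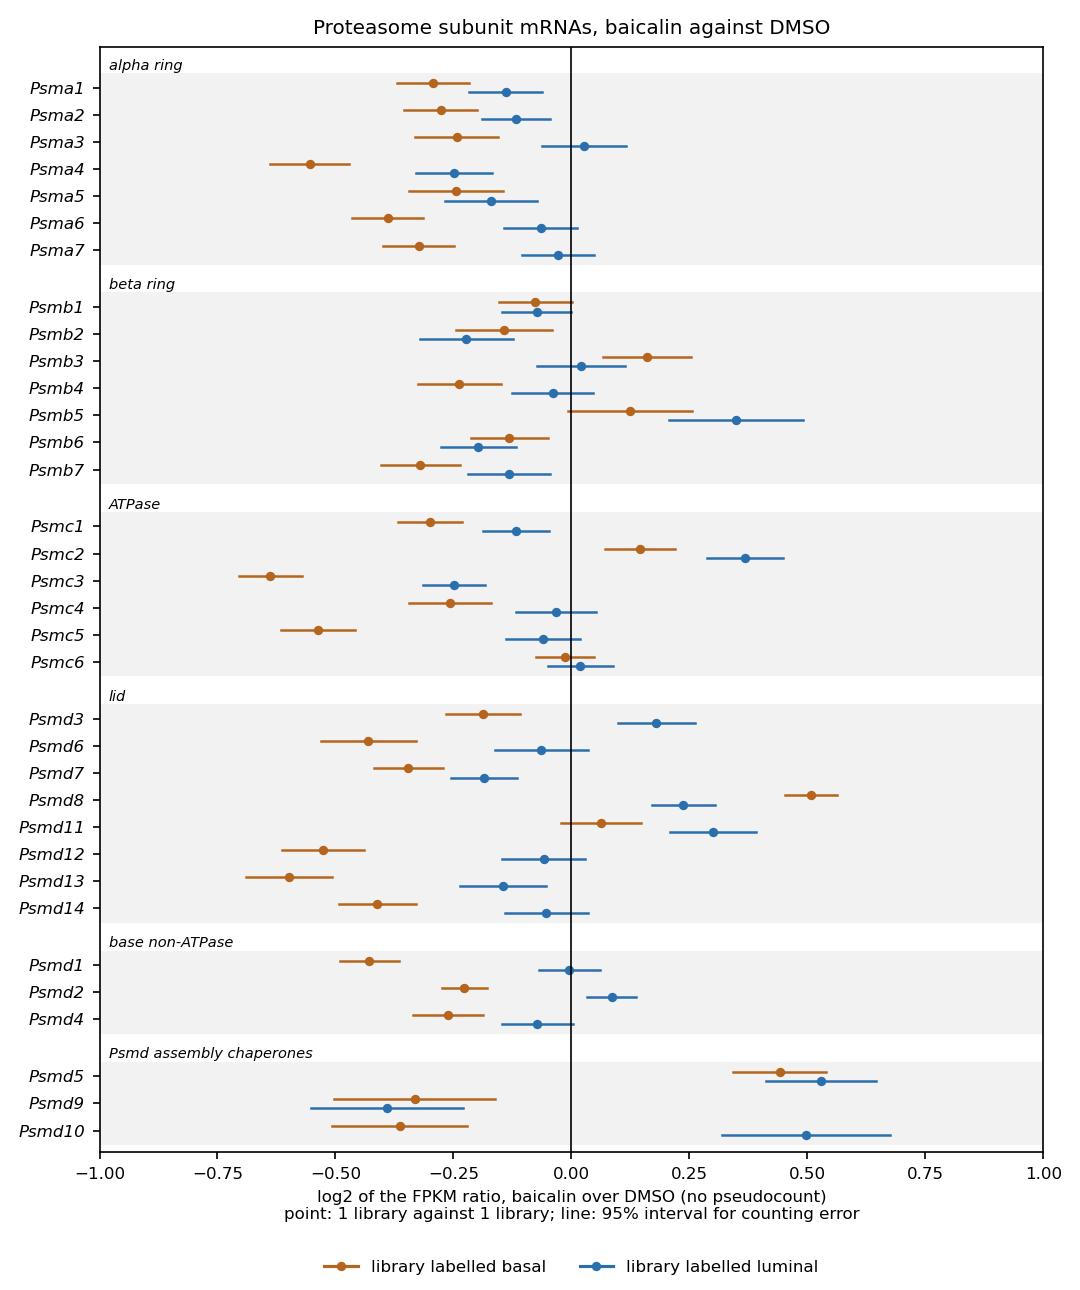
Log2 ratio of FPKM with baicalin over DMSO for the 34 proteasome subunit genes, brown for the libraries labelled basal and blue for those labelled luminal; each point compares 1 library with 1 library and each line is the 95% interval for counting error. Brown points lie left of 0 for 28 genes and blue points for 23, and Psma3, Psmc6, Psmd2, Psmd3 and Psmd10 have their points on opposite sides.

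Taken member by member, the change under the luminal label minus that under the basal label was above 0 for 29 of 34 members, against 45.2% of all genes, with a median of 0.22 against -0.03 over all genes. Of the 5229 genes with a mean of at least 10 FPKM, as 33 of the members have, 2689 were above 0, with a median of 0.01. The median over members was 0.26 in the alpha ring, 0.22 in the ATPases and 0.35 in the lid. It was near 0 for the beta ring, with a median of 0.0026. With 1 library a group this difference was not tested. Genes of cell division differed too: all 8 proliferation markers were lower with baicalin under both labels, with a median log2 change of -2.73 under the basal label and -1.06 under the luminal label. Their summed level was 259 FPKM, 31.3 FPKM, 285 FPKM and 133 FPKM, Mki67 had 54.0, 4.06, 68.6 and 25.9 FPKM, and Ccna2 had 26.5, 2.15, 29.8 and 12.5 FPKM. None of the 8 was at 0 in any library. The summed epithelial markers were lower with baicalin under the basal label as well, from 1684 to 461 FPKM for the basal and from 4433 to 3144 FPKM for the luminal markers. Under the luminal label the sums went from 5119 to 6131 FPKM and from 1379 to 1188 FPKM. The part of these genes in the subunits' change was not tested.

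Between the labels under DMSO, most members were lower in the library labelled luminal. The median log2 difference, luminal minus basal, was -0.17, against 0.0099 over all genes kept, and 26 of 34 members were lower, against 47.5% of all genes. On the TPM scale the median was -0.28, against -0.06 over all genes, and 30 members were lower. With upper quartile scaling it was -0.11, against 0.04 over all genes, and 25 were lower. Relative to all genes the members thus lay at -0.18 as reported, -0.22 with TPM and -0.15 with upper quartile scaling. Of the 5229 genes with a mean of at least 10 FPKM, 2832 were lower, with a median of -0.05. Relative to those genes the 33 members at such levels lay at -0.13. Psmd10 alone was lower by more than 0.5, against 12.3% of all genes. On the TPM scale, where the median of all genes also lay lower, 4 members were. No member was higher by more than 0.5, against 14.2%, and none passed 1 in either direction, against 8.56%. That last count depends on the pseudocount, since the plain ratio of Psmd10 was 0.489 (0.435 to 0.548), past the threshold of 1. The Psmc and Psmd genes, which include the chaperones Psmd5, Psmd9 and Psmd10, showed the difference more than the core genes did. The median was -0.28 over the 20 Psmc and Psmd genes and -0.05 over the 14 alpha and beta genes.

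With baicalin the median difference between the labels had the other sign. The median log2 difference, luminal minus basal, was 0.07, against -0.03 over all genes kept, and 11 of 34 members were lower under the luminal label, against 54.8% of all genes. On the TPM scale the median was 0.0033, against -0.10 over all genes kept, and 16 members were lower. Relative to all genes, the median of the members was 0.10 both as reported and on the TPM scale. Median centring and upper quartile scaling moved the median of the members the other way, to 0.10 and 0.12, with 25 members higher in each. The medians over all genes were then 0 and 0.00096. Psmd8 was lower by more than 0.5 under the luminal label, against 12.2% of all genes. None of the members was higher by more than 0.5, against 12.6%, and none passed 1 in either direction, against 8.23%. The label comparisons use the same libraries as the baicalin comparisons, so they are not separate evidence and no overlap is drawn between them.

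Of the alpha ring, all 7 measured subunits were lower with baicalin under the basal label, against 49.1% of all genes kept. Under the luminal label 6 of 7 were lower, against 54.4%, and the medians under the labels were -0.29 and -0.12. Psma4 had 60.4, 41.1, 57.6 and 48.4 FPKM, a ratio of 0.681 under the basal label (95% interval 0.642 to 0.721) and of 0.841 under the luminal label (0.795 to 0.890). It was the alpha gene with the most negative change under each label, and its level was lowest in the baicalin library labelled basal. Psma6, the most abundant member in 3 of the 4 libraries, had 136, 104, 112 and 107 FPKM, a log2 change of -0.39 under the basal and -0.06 under the luminal label. Psma7 had 51.7, 41.3, 46.3 and 45.4 FPKM. For both, the DMSO library labelled basal stood highest and the baicalin library labelled basal lowest. Psma5 had 67.2, 56.7, 68.0 and 60.5 FPKM, lower with baicalin under each label. Psma3 had 29.5, 24.96, 26.3 and 26.8 FPKM, and was the only alpha gene not lower under the luminal label, where its interval of 0.958 to 1.08 held 1. Psma1, at 52.7, 43.0, 49.2 and 44.7 FPKM, and Psma2, at 41.3, 34.1, 44.2 and 40.7 FPKM, were lower with baicalin under each label.

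The beta ring had the median nearest 0 of the classes under the basal label only, with medians of -0.13 and -0.07. Under each label 5 of 7 measured subunits were lower, against 49.1% and 54.4% of all genes kept. Psmb5, which cuts after hydrophobic residues and is the main target of proteasome inhibitor drugs, had 50.9, 55.4, 40.2 and 51.2 FPKM. Its ratio was 1.09 under the basal label (0.995 to 1.19), which held 1, and 1.27 under the luminal label (1.15 to 1.41). Psmb6, which cuts after acidic residues, had 67.5, 61.6, 73.5 and 64.1 FPKM, ratios of 0.913 (0.862 to 0.966) and 0.872 (0.825 to 0.921). The third catalytic subunit, Psmb7, which cuts after basic residues, had 37.3, 29.9, 32.3 and 29.5 FPKM, ratios of 0.801 (0.756 to 0.849) and 0.912 (0.859 to 0.970). So the catalytic subunits did not move as a unit: Psmb5 was higher with baicalin while Psmb6 and Psmb7 were lower, under each label. Among the structural beta subunits, Psmb3 had 39.0, 43.6, 40.6 and 41.1 FPKM, highest in the baicalin library labelled basal. Psmb4 had 58.1, 49.3, 57.0 and 55.4 FPKM, and Psmb2 had 68.6, 62.1, 76.1 and 65.2 FPKM. Psmb4 was lower mainly under the basal label, whereas Psmb2 had its more negative change under the luminal label, with a log2 change of -0.22. Psmb1, at 29.9, 28.3, 34.4 and 32.7 FPKM, had a log2 change of -0.07 under both labels and was higher under the luminal label with either treatment.

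The ATPases of the base held both the most negative change of any member and 1 of the positive ones. Psmc3 (ENSMUSG00000002102), on chr2:91054009-91066369 of GRCm38, had 90.5, 58.2, 81.0 and 68.2 FPKM. Its ratio was 0.643 under the basal label (0.614 to 0.673) and 0.842 under the luminal label (0.805 to 0.880), so both intervals lay below 1. Psmc5 had 115, 79.5, 95.2 and 91.3 FPKM, a ratio of 0.690 under the basal label (0.653 to 0.728), while the interval under the luminal label, 0.908 to 1.01, held 1. Psmc2, another ATPase of the ring, went the other way. It had 27.7, 30.6, 22.2 and 28.6 FPKM, with ratios of 1.11 (1.05 to 1.16) and 1.29 (1.22 to 1.36). Psmc1 had 102, 82.8, 90.2 and 83.2 FPKM, Psmc4 had 55.2, 46.2, 52.6 and 51.4 FPKM, and both were lower with baicalin under each label. Psmc6 had 61.4, 60.8, 49.2 and 49.8 FPKM. It separated by label and not by treatment, with both intervals for baicalin holding 1. The class medians were -0.27 under the basal label and -0.05 under the luminal label. With DMSO all 6 ATPases were lower under the luminal than the basal label, against 47.5% of all genes kept.

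The lid had the most negative median of the 4 main groups of subunits under the basal label, -0.37, and -0.05 under the luminal label. Psmd8 (ENSMUSG00000030591), a lid subunit encoded on chr7:29174188-29180701, had 73.0, 104, 53.9 and 63.6 FPKM, the most positive change of any member under the basal label. Its ratio was 1.42 under the basal label (1.37 to 1.48) and 1.18 under the luminal label (1.13 to 1.24). In the baicalin library labelled basal it was the most abundant of all members. Psmd13 had 36.6, 24.2, 30 and 27.1 FPKM, and Psmd12 had 48.3, 33.6, 40.1 and 38.5 FPKM. Their ratios under the basal label were 0.661 (0.620 to 0.703) and 0.694 (0.653 to 0.738), while under the luminal label that of Psmd12 held 1. Psmd14, the deubiquitinase of the lid, had 49.4, 37.2, 38.1 and 36.7 FPKM. The DMSO library labelled basal was the high one, and the log2 change with baicalin was -0.40 there and -0.05 under the luminal label. Psmd7, the partner of Psmd14 in the lid, had 76.5, 60.2, 78.6 and 69.1 FPKM, lower with baicalin under each label. Psmd6 had 33.2, 24.6, 30.4 and 29.1 FPKM, with an interval below 1 under the basal label only. Psmd11, a scaffold of the lid, had 17.2, 18.0, 14.1 and 17.3 FPKM, and its interval lay above 1 under the luminal label only, at 1.16 to 1.31. Psmd3 had 28.0, 24.6, 22.9 and 25.9 FPKM, which puts it lower with baicalin under the basal label and higher under the luminal label.

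The non-ATPase subunits of the base were all lower with baicalin under the basal label, against 49.1% of all genes kept. Over these 3 genes the median was -0.26, and under the luminal label it was -0.0041. Psmd2, a docking subunit and the member with the most fragments, had 93.1, 79.6, 70.6 and 74.9 FPKM. Psmd1, the other large scaffold of the base, had 32.9, 24.5, 26.7 and 26.6 FPKM, and its change under the luminal label was so near 0 that its sign turned with TPM, median or upper quartile scaling. Psmd4, a ubiquitin receptor, had 57.5, 48.0, 52.5 and 49.9 FPKM. In all of these genes the DMSO library labelled basal was the highest.

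The remaining Psmd genes, Psmd5, Psmd9 and Psmd10, encode chaperones that help the base assemble and leave before the complex is complete. Psmd9 and Psmd5 were the least abundant members, and the chaperones did not move together. Psmd5 had 10.1, 13.7, 7.11 and 10.3 FPKM, with ratios of 1.36 (1.27 to 1.45) and 1.44 (1.33 to 1.56), so it was higher with baicalin under each label. Psmd9 had 4.39, 3.49, 5.05 and 3.85 FPKM, with ratios of 0.795 (0.706 to 0.894) and 0.763 (0.682 to 0.852), lower under each. Psmd10 (ENSMUSG00000031429), also called gankyrin, on chrX:140948429-140956728, had 31.2, 24.3, 15.3 and 21.5 FPKM. Its ratio was 0.777 under the basal label (0.704 to 0.857) and 1.41 under the luminal label (1.25 to 1.60), in opposite directions. It also had the largest difference between labels under DMSO, a log2 difference of -0.99. Without these 3 chaperones the median of the remaining 31 members under the basal label was -0.26, as with them.

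Several subunits have near-identical copies elsewhere in the genome, and reads from a gene and its copy may have been divided between them. A copy with a mean of at least 1 FPKM was found for 7 members: Psma3, Psma4, Psma5, Psmb3, Psmc1, Psmd11 and Psmd2. The copy of Psma3 named Gm13835 was listed at 74.6, 70.0, 61.9 and 61.8 FPKM, above Psma3 itself, so the level of Psma3 is uncertain. With the fragments of gene and copies added together, the log2 change of Psma3 was -0.20 under the basal and 0.01 under the luminal label, and that of Psmb3 was 0.13 and -0.0018. So the small positive change of Psmb3 under the luminal label turned sign when its copies were added, while Psmd11 stayed higher under both labels, at 0.05 and 0.22. Without the 7 members, the medians of the other 27 were -0.27 and -0.06. The exons of Psmb7, Psmc3 and Psmd13 overlap those of Nek6, Slc39a13 and Sirt3 on the opposite strand, and since the sources used here do not say whether strand was used in counting, reads from each pair might not be told apart. Those neighbours were low: Slc39a13, beside Psmc3, had 7.72, 6.16, 5.22 and 6.97 FPKM, Nek6, beside Psmb7, 3.32, 3.32, 4.43 and 3.45 FPKM, and Sirt3, beside Psmd13, 0.995, 1.37, 1.48 and 1.12 FPKM. Psmd8, Psmc2, Psmd5 and Psmd10 had neither a copy nor an overlapping gene.

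The promoters were read for letters bound by known regulators of these genes. The antioxidant response element, which Nfe2l1 and Nfe2l2 bind with small Maf partners, has the core TGACNNNGC, and the CCAAT box, bound by the factor NF-Y, is common in promoters of housekeeping genes. RefSeq promoters on GRCm38.p6, each 250 bases before to 50 bases after the start site, were found for 29 of the 36 genes; Psma8, Psmb1, Psmb2, Psmb7, Psmc3, Psmd3 and Psmd7 were not matched. On either strand, TGACNNNGC was in the promoter of 5 of 29 genes, or 17.2%, against 14.0% of 27025 genes with a promoter in the table. CCAAT was in 12 of 29, or 41.4%, against 41.1% of those genes. The shares of the members were thus close to those of all genes. The 5 genes with the element are shown with 15 bases to either side where the window and the start site allow, because they include subunits that went opposite ways with baicalin, with the core in capitals as it reads on the strand of the gene: Psmd9 at chr5:123228144-123228182 (+), Psmb6 at chr11:70525333-70525356 (+), Psmd12 at chr11:107479278-107479304 (+), Psmc6 at chr14:45329582-45329620 (+) and Psmb5 at chr14:54618019-54618057 (-).
Psmd9: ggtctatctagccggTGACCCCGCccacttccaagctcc
Psmb6: gcggactaaagagagTGACGGAGC
Psmd12: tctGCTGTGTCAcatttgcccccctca
Psmc6: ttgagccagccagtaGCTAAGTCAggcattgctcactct
Psmb5: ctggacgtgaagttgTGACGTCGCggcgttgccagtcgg
The core lay on the strand of the gene in Psmd9, Psmb6 and Psmb5 and on the opposite strand in Psmd12 and Psmc6. The 5 genes with it had a median log2 change with baicalin of -0.13 under the basal label and -0.06 under the luminal label, and the 23 measured members without it -0.27 and -0.04. A match of letters is a description and no evidence that a factor binds there.

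Several regulators of proteasome genes were higher with baicalin. Of 8 regulator genes, 6 were higher under the basal label, against 50.9% of all genes kept, with a median log2 change of 0.50, and 5 under the luminal label, against 45.6%, with a median of 0.26. Nfe2l1, the factor that induces the subunit genes as a set, had 114, 171, 67.1 and 109 FPKM, ratios of 1.51 (1.47 to 1.54) and 1.62 (1.58 to 1.67). It was thus higher under each label while the median subunit was lower. Its small Maf partners were higher too: Mafg had 16.8, 29.1, 16.9 and 22.8 FPKM, Maff had 15.01, 23.9, 5.32 and 9.86 FPKM, and Mafk had 19.5, 28.8, 21.2 and 26.5 FPKM. Nfe2l2, the related factor of the antioxidant response, had 53.6, 74.5, 48.8 and 56.8 FPKM. Ddi2, the protease that activates Nfe2l1, had 13.8, 15.9, 19.7 and 15.2 FPKM, higher under the basal and lower under the luminal label. Ngly1, which also processes Nfe2l1, and Keap1, which holds back Nfe2l2, had intervals holding 1 under both labels. These are mRNA levels, and Nfe2l1 activity is set largely at the protein.

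The immune variants that replace the catalytic subunits after interferon held the largest changes among the proteasome genes examined here, in Psmb8 and Psmb10. Psmb8 had 19.1, 6.29, 8.21 and 11.9 FPKM, a ratio of 0.330 under the basal label (0.295 to 0.368) and of 1.45 under the luminal label (1.30 to 1.61). Psmb10 had 15.7, 5.09, 9.12 and 9.97 FPKM, and Psmb9 had 2.48, 0.943, 1.52 and 1.80 FPKM. All 3 were lower with baicalin under the basal label, with intervals below 1, and under the luminal label the intervals of Psmb9 and Psmb10 held 1. The exons of Psmb9 overlap those of Tap1 on the opposite strand, so its level is uncertain. The caps Psme1 and Psme2, which interferon also induces, had 57.9, 31.3, 38.6 and 35.6 FPKM, and 50.8, 26.2, 28.0 and 27.0 FPKM. Each was lower by more than 0.5 under the basal label, with ratios of 0.540 and 0.516. Psme2 has a near-identical copy, Psme2b, at 30.5, 25.8, 18.2 and 24.0 FPKM, and with both added the log2 change was -0.76 under the basal label. Psme3, the nuclear cap, had 47.1, 45.0, 32.6 and 36.4 FPKM, and Psme4, a cap tied to chromatin and spermatogenesis, had 36.9, 34.2, 30.9 and 30.5 FPKM. Neither was lower by more than 0.25 under either label. Psmf1, an inhibitor of the core in vitro, had 4.59, 5.26, 3.73 and 4.37 FPKM, with both intervals above 1.

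Markers of immune, fibroblast and endothelial cells summed to less than the epithelial markers in every library. Beside the immune variants they were not uniformly low, since Cd68 was above Psmb9 in every library. Summed over 8 immune markers the level was 17.6, 54.9, 6.49 and 21.1 FPKM, and Cd68, a lysosomal protein gene not limited to macrophages, had 7.49, 51.5, 4.44 and 13.7 FPKM. Ptprc, Itgam, Cd3e and Adgre1 were at or near 0 in all 4 libraries, with 0.0449 FPKM of Adgre1 as the highest value, while Cd79a, a B cell marker, had 1.07, 0.778, 0.567 and 1.396 FPKM. Lyz2 had 8.84, 2.17, 0.903 and 2.61 FPKM, and Cd74 had 0.179, 0.455, 0.513 and 3.30 FPKM. Lyz2 thus moved as Psmb8 did, lower with baicalin under the basal and higher under the luminal label, and its part in the changes of the immune variants was not tested. The antibodies listed for the sort include ones against leukocyte, endothelial and red cell antigens. Summed over 6 fibroblast markers the level was 6.61, 2.60, 10.4 and 8.73 FPKM and over 5 endothelial markers 0.876, 1.27, 1.75 and 3.46 FPKM. None of these 11 genes was at 0 in any library. Pdgfra had 0.593, 0.630, 6.30 and 1.67 FPKM, Col1a1 had 2.47, 0.841, 1.504 and 2.74 FPKM, Col1a2 had 1.43, 0.393, 1.12 and 1.38 FPKM, and Dcn had 0.828, 0.431, 0.620 and 1.70 FPKM. Cdh5 had 0.431, 0.587, 0.529 and 1.34 FPKM, Pecam1 had 0.291, 0.261, 0.805 and 1.28 FPKM, and Emcn had 0.0279, 0.173, 0.115 and 0.269 FPKM.

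**Figure D3:**
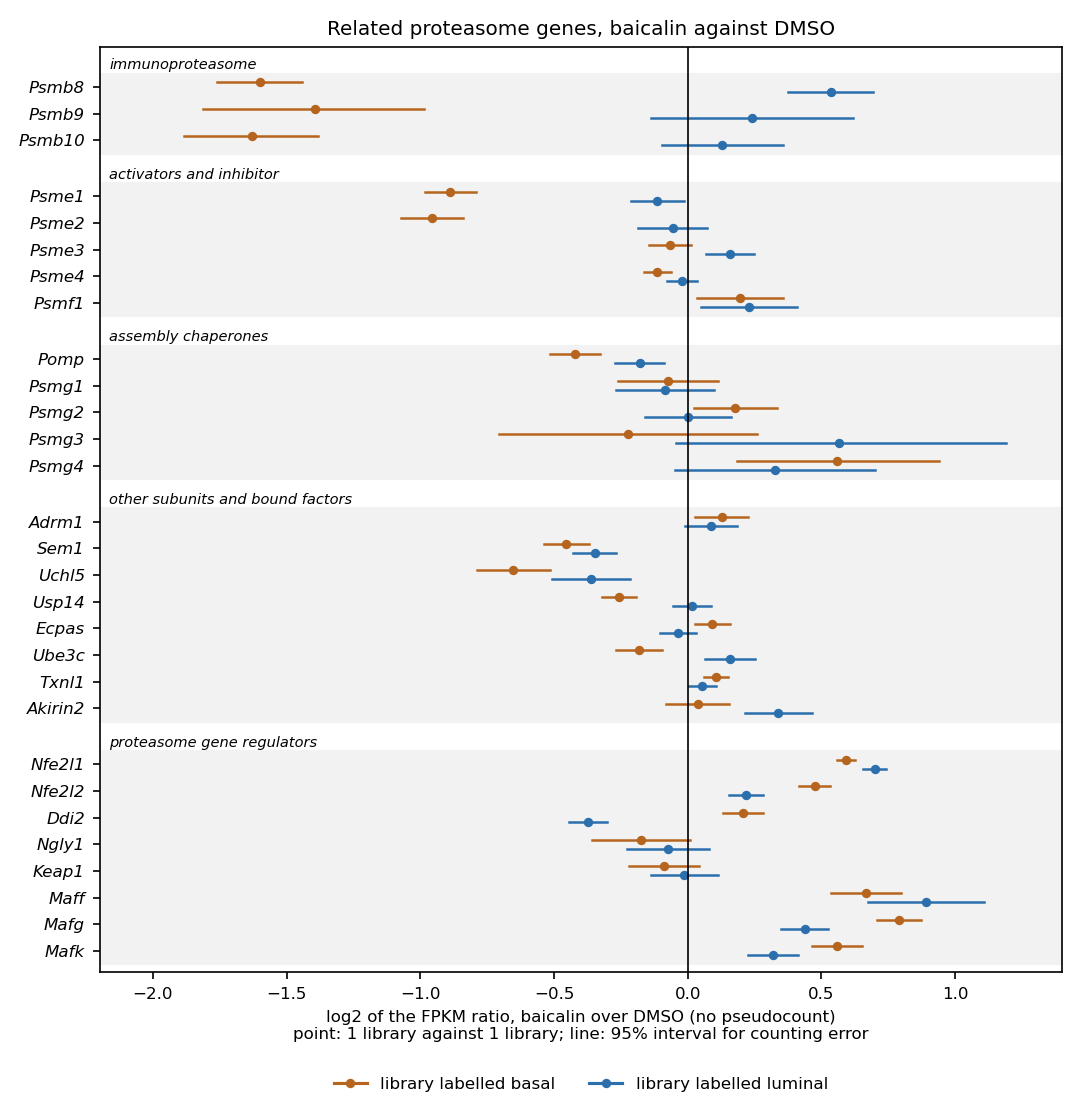
Log2 ratio of FPKM with baicalin over DMSO for genes of proteasome variants, caps, assembly and regulation, brown for the basal and blue for the luminal label; each point compares 1 library with 1 library and each line is the 95% interval for counting error. Psmb8, Psmb9 and Psmb10 lie far left of 0 under the basal label only, and Nfe2l1, Nfe2l2, Maff, Mafg and Mafk lie right of 0 under both.

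Of the assembly chaperones of the core, Pomp had 20.7, 15.4, 19.98 and 17.6 FPKM, lower with baicalin under each label. Psmg4 had 8.98, 13.2, 9.96 and 12.5 FPKM and Psmg3 had 1.39, 1.19, 0.679 and 1.004 FPKM. Of the intervals of Psmg3 and Psmg4, only that of Psmg4 under the basal label, 1.13 to 1.92, did not hold 1. Psmg1 and Psmg2 changed by less than 0.25 under each label, and Paaf1 was not found by symbol. Among 8 other subunits and bound factors, the median log2 change was -0.07 under the basal and 0.03 under the luminal label. Uchl5, a deubiquitinase of the cap, had 19.4, 12.3, 14.9 and 11.6 FPKM, and Sem1, a small lid subunit with no Psm symbol, had 39.3, 28.7, 41.7 and 32.7 FPKM. Both were lower with baicalin under each label, with intervals below 1, as most lid members were under the basal label. The ubiquitin receptor gene Adrm1, at 17.8, 19.5, 18.8 and 19.9 FPKM, was not lower under either label.

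Genes that supply ubiquitin or carry tagged proteins to the proteasome had 10 of 16 higher with baicalin under the basal label, against 50.9% of all genes kept, and 12 of 16 under the luminal label, against 45.6%. Their medians were 0.09 and 0.16. Sqstm1, a receptor that carries ubiquitin-tagged cargo to autophagy and the proteasome, had 205, 590.1, 110.3 and 237 FPKM. Zfand2a, a stress-induced factor that binds the proteasome, had 41.5, 74.0, 13.9 and 32.7 FPKM. These were the largest changes in the list, and Sqstm1 passed 1 under each label while Zfand2a passed it under the luminal label. The polyubiquitin gene Ubb, at 426, 426, 475 and 474 FPKM, was level with baicalin. Vcp, the unfoldase that pulls tagged proteins out of complexes, had 129, 89.1, 105 and 114 FPKM, lower under the basal label as most subunits were. The level of Rps27a is uncertain, since it has many near-identical copies.

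Other large complexes of the cell served as a comparison. The CCT chaperonin, which folds actin and tubulin, was close to the proteasome in its medians, at -0.25 under the basal and -0.08 under the luminal label, with 7 and 8 of its 8 genes lower, against 49.1% and 54.4% of all genes kept. The COP9 signalosome, whose subunits are related to those of the proteasome lid, had medians of -0.11 and 0.04 over 10 genes, and the translation factor eIF3, which shares the same domains, 0.06 and -0.04 over 13 genes. Cct3 had 52.5, 36.7, 43.1 and 37.0 FPKM, and Cct6a had 92.0, 67.0, 76.8 and 66.1 FPKM. Cops2 had 52.5, 45.7, 57.7 and 48.3 FPKM, Cops7a had 20.03, 28.0, 25.7 and 28.4 FPKM, and Cops9 had 17.8, 23.8, 30.6 and 37.8 FPKM. Eif3f had 49.6, 102, 61.5 and 67.8 FPKM, Eif3b had 111, 85.9, 89.3 and 88.9 FPKM, Eif3c had 189, 233, 161 and 198 FPKM, and Eif3k had 46.6, 50.6, 67.7 and 57.7 FPKM. So lower mRNA with baicalin under the basal label was shared with the chaperonin, and was smaller or not seen in the complexes related to the lid. These are counts and medians of 1 library against 1 library, and no difference between complexes was tested.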

How the data were processed

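The authors enriched poly(A) RNA, made stranded libraries and deposited FPKM for 54446 genes in 4 libraries, 1 per group. The paper names HISAT2 and GRCm38, whereas the submitters' processing notes list Bowtie 0.12.2 and the builds mm8 and GRCm38. With exon lengths from GENCODE mouse release 21 on GRCm38, found for 54409 genes, FPKM multiplied by length fell within 0.05 of whole fragments for all 36 members in every library. Whether strand was used in counting is not stated in the sources used here.

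Log2 ratios of FPKM + 1 were taken over the 17787 genes above 0 in all 4 libraries, with thresholds of 1 and 0.5. The threshold of 0.25 was set at the start only as an alternative for higher subunits, and its other counts were chosen after seeing the data. Ratio intervals are exact Clopper-Pearson intervals at 95% on the recovered fragments. With 1 library per group no test was made. The members and lists were chosen with earlier results of these data known. By the rule set at the start, all 4 values were given for the 2 most positive and 2 most negative members of each class per baicalin comparison, the 2 with the largest label difference, the catalytic subunits, Psmd4, Psmd14, the immune variants, the caps and, per other list, the 2 largest changes. The remaining members, and Nfe2l2, Ddi2, Mafk, Vcp, Ubb, Adrm1, Cd79a, Esr1, Pgr, the copies and the overlapping genes, were added after their values were seen. Of the ubiquitin list set at the start, 1 entry is not reported here and is left out of its counts. Alternatives were a pseudocount of 0.1 or none, a minimum of 1 FPKM or no filter, TPM, median and upper quartile scaling, and other thresholds. Copies were found with minimap2 2.31-r1302, at 95% identity over at least 200 bases. The computation was tested on simulated data. The work ran in Python 3.11.15 with matplotlib 3.10.9, scipy 1.17.1, numpy 2.4.6 and pandas 2.3.3.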

Additional observations from a re-analysis of the deposited data

Results flagged for a closer look

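Some of the subunits and related genes went opposite ways with baicalin under the labels, with the 95% counting intervals of their changes on opposite sides of no change. The values are the log2 change under the luminal label minus that under the basal label, and with 1 library per group none of these differences was tested. Opposite intervals were common: 10.6% of all genes kept had them, 16.9% of those with a mean of at least 10 FPKM, 3 of the 34 subunits, and 4 of the 13 eIF3 genes, which are not listed here. Among the proteasome subunits, the difference was 0.82 for Psmd10, 0.35 for Psmd3 and 0.31 for Psmd2, all lower with baicalin under the basal and higher under the luminal label. Among related genes it was 1.95 for Psmb8, 0.65 for Vcp, 0.45 for Uba1, 0.37 for Rad23b and 0.31 for Ube3c, in the same sense. Ddi2, with -0.55, and Rps27a, with -0.55, were higher under the basal and lower under the luminal label. The sign of each change with baicalin was kept under TPM, median and upper quartile scaling. Rps27a has many near-identical copies, and with its copy Vcp-rs added the log2 changes of Vcp were -0.49 and 0.04.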

How the results depend on the processing

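No paired analysis was possible because each group has 1 library and the labels carry no shared replicate numbers, and for the same reason no library could be left out in turn. The median change of the subunits with baicalin lay between -0.30 and -0.25 under the basal label and between -0.06 and -0.04 under the luminal label over 11 alternatives, and the difference between these responses lay between 0.20 and 0.26. Of these alternatives, 4 were chosen after seeing the data: a mean FPKM of at least 10, protein-coding genes, and leaving out the members with copies or the chaperones Psmd5, Psmd9 and Psmd10. The median difference between labels under DMSO moved from -0.17 to -0.28 with TPM scaling, and was -0.11 with upper quartile scaling. The median over all genes moved in the same sense, from 0.0099 to -0.06 and to 0.04. Relative to all genes the members lay at -0.18 as reported, -0.22 with TPM and -0.15 with upper quartile scaling, and the cause was not tested. Among genes with a mean of at least 10 FPKM, the members lay at -0.13 relative to the others. The number of subunits higher by more than 0.5 under the basal label was 1, and became 0 with TPM scaling, with median centring or at a threshold of 1, and 2 at a threshold of 0.25. Under the luminal label it was 0, and became 1 with a pseudocount of 0.1, with none or with TPM scaling, and 5 at a threshold of 0.25. The number lower by more than 0.5 was 5 under the basal label, 0 at a threshold of 1 and 19 at a threshold of 0.25, and 0 under the luminal label, 1 at a threshold of 0.25. All counts of lower subunits, at any size or by more than 0.5, were added after seeing the data. Counts at other thresholds follow from the threshold, and for the other moves the cause was not tested. The median half-width of the counting interval was 0.08 on the log2 scale for 1 library against 1 library. For the difference between the responses it was 0.12. So for a typical subunit a smaller change or difference could not be told from counting error, and the spread between cultures is unknown.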
